A study of Mus musculus with 8 samples.

Results

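The genes described here are the clock nuclear receptors Nr1d1 (REV-ERBα), Nr1d2 (REV-ERBβ) and Rora (RORα), taken by gene symbol as 3 of the 55421 transcripts in the deposited tables of mouse liver RNA. Each symbol had 1 row, and all 3 were among the 14506 transcripts that passed the filter on low counts. The 8 libraries came from male C57BL/6J mice bought at 4 weeks of age, acclimated for 4 weeks, then given a diet with 45% of its calories as fat, and killed at 30 weeks. The groups, of 2 mice each, were sudachitin at ZT18, control at ZT18, sudachitin at ZT6 and control at ZT6, where ZT is the number of hours after lights on. Sudachitin is a polymethoxyflavone, a plant flavonoid carrying several methoxy groups; it was given by gavage at 100 mg per kg of body weight every other day between ZT8 and ZT10, and control mice received PBS. The cohorts held 12 sudachitin and 11 control mice, so the sequenced livers are a few of each.

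REV-ERBα and REV-ERBβ are repressors that bind the ROR response element, a DNA motif built on an AGGTCA half-site, and recruit the NCoR and HDAC3 corepressor complex, with heme as their ligand. The ROR receptors bind the same elements and activate transcription, so that the balance of both families sets the rhythm of Bmal1 (Arntl) and other genes. The CLOCK and BMAL1 pair drives Nr1d1 and Nr1d2 through E-box motifs, which closes a loop. In liver the REV-ERB receptors are known as links between the clock and bile acid, lipid and glucose metabolism.

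Libraries held 13914116 to 17759630.5 counts in exons. The 7 hepatocyte markers, such as Alb and Ttr, were above 0 in every library and summed to 79463 to 91295 counts scaled to library size (CPM) in sudachitin ZT18, 88087 to 93509 CPM in control ZT18, 75941 to 89019 CPM in sudachitin ZT6 and 82428 to 96087 CPM in control ZT6 livers. In bulk liver, fewer cells of a type and less RNA per cell cannot be told apart.

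The sequences before the starts of the 2 REV-ERB genes are shown because both genes fell at night, and capitals mark the motif found in each by a search on both strands. The stretches are the 250 bases before the start in RefSeq (GRCm38.p6), at chr11:98775378-98775627 on the minus strand for Nr1d1 and chr14:18239107-18239356 on the minus strand for Nr1d2.
Nr1d1: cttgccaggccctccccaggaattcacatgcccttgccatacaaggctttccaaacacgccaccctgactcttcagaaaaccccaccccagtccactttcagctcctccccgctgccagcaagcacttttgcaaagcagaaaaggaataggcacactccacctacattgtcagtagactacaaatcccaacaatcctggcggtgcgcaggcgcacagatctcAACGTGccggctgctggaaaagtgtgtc
Nr1d2: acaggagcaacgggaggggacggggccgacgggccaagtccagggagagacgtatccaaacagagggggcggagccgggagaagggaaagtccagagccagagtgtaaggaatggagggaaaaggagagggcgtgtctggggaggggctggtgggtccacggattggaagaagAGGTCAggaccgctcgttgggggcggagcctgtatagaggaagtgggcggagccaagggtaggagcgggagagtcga
In Nr1d1 the capitals are AACGTG, which is the E-box variant CACGTT on the other strand, at positions -28 to -23 from the start. In Nr1d2 they are the receptor half-site AGGTCA at positions -77 to -72. The window of 250 bases before to 50 after the start was searched for these, for the E-box CACGTG and for the D-box TTATGNAA, and that of Rora held none of the 4. Of all 32851 promoters of the table, 7.15% held CACGTG, 4.68% CACGTT, 16.3% AGGTCA and 3.38% TTATGNAA. A match describes the letters only.

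Half-sites also stood in the windows of 3 clock genes that carry ROR response elements, and they are set beside that of Nr1d2 because the levels of these genes are described with those of the receptors. Each line gives 26 bases on the strand of the motif, with the AGGTCA match in capitals, at chr14:18239168-18239193 on the minus strand for Nr1d2, and on the plus strand at chr7:113207532-113207557 for Arntl, chr13:52981036-52981061 for Nfil3 and chr5:76303606-76303631 for Clock.
Nr1d2: ttggaagaagAGGTCAggaccgctcg
Arntl: ggcagaaagtAGGTCAgggacggagg
Nfil3: gtgtgttagtAGGTCAgttccgagcg
Clock: gtcatctgtcAGGTCAgaggccaaag
The match was in 1 of several promoters listed for Arntl and for Clock, and Cry1 held no half-site but had CACGTG at positions -60 to -55 and AACGTG at -79 to -74.

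The rows counted for the 3 genes differed in how much of the gene they covered. The Nr1d1 row was transcript Nr1d1-201 (chr11:98767932-98775333, minus strand, GRCm38) with 8 exons, and the Nr1d2 row was Nr1d2-201 (chr14:18204054-18239127, minus strand), also with 8 exons. The Rora row was Rora-206 (chr9:68653891-69364494, plus strand), a short transcript of 6 exons annotated as subject to nonsense-mediated decay. It held 669 of the 10878 exon bases of the coding transcript Rora-201, or 6.15%, and 557 of the 2591 bases of Rora-202, or 21.5%. Counts of Rora are thus counts over a small portion of the gene, and its FPKM (counts scaled to the length of the counted exons and to the library total) rests on 745 bases. The libraries carry no strand, and 263 of the 2721 exon bases of Nr1d1-201 (9.67%) also lie in the opposite-strand transcript Thra-201, while 82 bases (10.9%) of Rora-206 lie in the antisense gene Gm15511; reads from these stretches cannot be told apart.

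**Figure D1:**
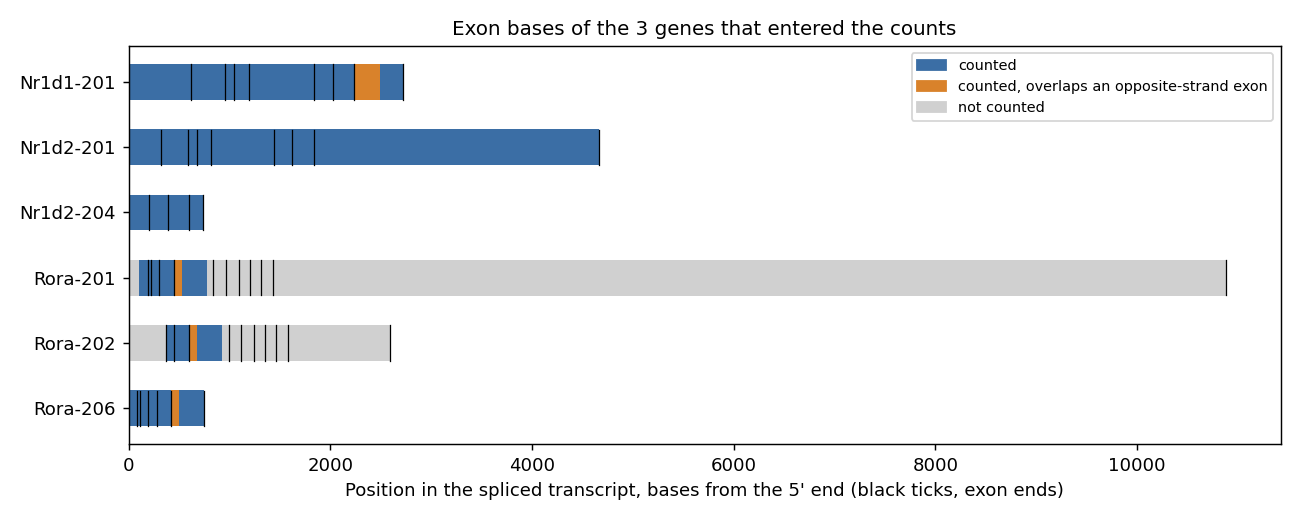
Exon bases of Nr1d1, Nr1d2 and Rora transcripts that entered the counts, by position in the spliced transcript in bases from the 5' end; black ticks mark exon ends. The Nr1d1 and Nr1d2 transcripts were counted whole, whereas 6.15% of Rora-201 and 21.5% of Rora-202 were counted.

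Nr1d1 fell to a low level at ZT18 in both treatments. Its level was 0.798 and 1.22 FPKM in sudachitin ZT18 livers and 0.873 and 0.841 FPKM in control ZT18 livers. At ZT6 it was 19.4 and 16.0 FPKM under sudachitin and 20.7 and 17.8 FPKM in controls. Every ZT18 library lay below every ZT6 library, and the lowest ZT6 value was that of a sudachitin liver. The reads behind these levels were 81.5 and 128 counts in sudachitin and 88 and 73 counts in control livers at ZT18, against 1842 and 1338.5 counts in sudachitin and 1666 and 1563 counts in control livers at ZT6. Under sudachitin, Nr1d1 was 16.5-fold lower at ZT18 than at ZT6 (log2 change -4.04, SE 0.222, 95% interval -4.55 to -3.54, edgeR quasi-likelihood adjusted p = 0.00051). In controls it was 22.1-fold lower (log2 change -4.47, SE 0.229, 95% interval -4.99 to -3.95, edgeR adjusted p = 0.00028). In both comparisons it had the smallest p of all transcripts tested. Only ZT6 and ZT18 were sampled, so peak time, trough and amplitude were not measured for any gene.

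Nr1d2 also fell at ZT18, by a smaller fold. It stood at 3.26 and 3.10 FPKM in sudachitin ZT18 and 2.38 and 2.52 FPKM in control ZT18 livers. At ZT6 it stood at 6.22 and 7.21 FPKM under sudachitin and 7.13 and 6.56 FPKM in controls. The ZT18 and ZT6 libraries did not overlap, and within ZT18 both control livers were the lowest. Under sudachitin it was 1.99-fold lower at ZT18 (log2 change -0.995, SE 0.128, 95% interval -1.29 to -0.70, edgeR adjusted p = 0.029). In controls it was 2.75-fold lower (log2 change -1.46, SE 0.13, 95% interval -1.75 to -1.16, edgeR adjusted p = 0.0056). The call under sudachitin was lost when any sudachitin mouse or either control ZT6 mouse was left out (edgeR adjusted p between 0.076 and 0.29), with the log2 change between -1.10 and -0.91. The call in controls was lost without control ZT6 replicate 1 (log2 change -1.40, adjusted p = 0.065) and when only the control libraries were fitted (adjusted p = 0.11).

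Of the 3 genes, 2 fell at ZT18 in each treatment, where 0.0758% of tested transcripts fell under sudachitin (11, or 1 to 64 without 1 library) and 0.31% in controls (45, or 3 to 118 without 1 library). The ZT18 libraries of a treatment lay below its ZT6 libraries for 22.3% of tested transcripts under sudachitin and for 21.1% in controls. Over both treatments together 1.82% of tested transcripts fell, and for 7.02% the 4 ZT18 libraries lay below the 4 ZT6 libraries. In that fit, which uses the same libraries again, Nr1d1 was 19.0-fold lower (log2 change -4.25, 95% interval -4.63 to -3.87, edgeR adjusted p = 9e-06) and Nr1d2 2.34-fold lower (log2 change -1.22, 95% interval -1.48 to -0.97, edgeR adjusted p = 0.0017). Both kept these calls when any 1 library was left out, with an edgeR adjusted p of at most 0.00014 for Nr1d1 and 0.0079 for Nr1d2.

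**Figure D2:**
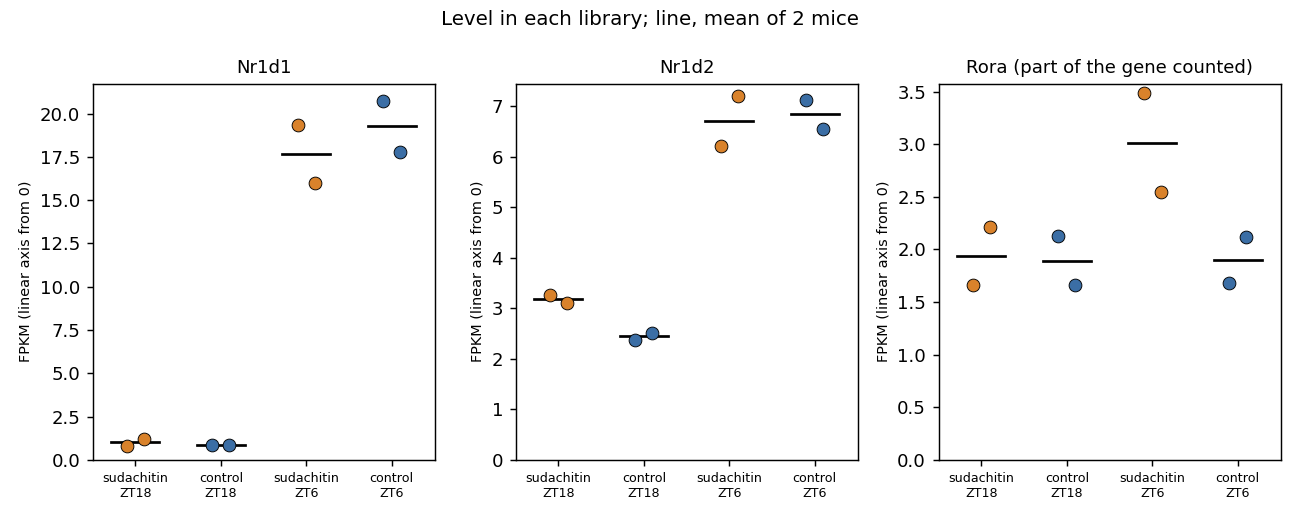
Level in FPKM (linear axes from 0) of Nr1d1, Nr1d2 and Rora in each of the 8 libraries, by group; points are mice and lines are means of 2. Nr1d1 and Nr1d2 are lower in all ZT18 libraries than in any ZT6 library, and Rora is highest in the sudachitin ZT6 livers at 2.54 and 3.48 FPKM.

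The more abundant REV-ERB transcript was not the same at the 2 times. At ZT18 the ratio of Nr1d1 to Nr1d2 FPKM was 0.245 and 0.392 in sudachitin and 0.366 and 0.334 in control livers. At ZT6 the ratio was 3.11 and 2.22 in sudachitin and 2.91 and 2.71 in control livers. Nr1d2 was thus the higher of the pair in all 4 ZT18 libraries, and Nr1d1 in all 4 ZT6 libraries. The mean log2 ratio of counts was -2.38 at ZT18 and 0.66 at ZT6, a difference of -3.04, with a two-sided exact permutation p of 0.0286, the smallest that 70 splits of 8 libraries can give. The same log2 ratio of counts of Nr1d1 to Rora averaged 0.82 at ZT18 and 4.82 at ZT6, a difference of -4.00 (exact permutation p = 0.0286, again the smallest possible). Counts do not allow for the counted length, 2713 bases for Nr1d1 and 745 for Rora. By FPKM the mean log2 ratio was -1.05 at ZT18 and 2.96 at ZT6, so the counted part of Rora was the higher at ZT18. As that part is a small portion of the gene, the levels of the coding Rora transcripts were not compared with Nr1d1. With the labels exchanged only within a treatment, the permutation p was 0.0556 for the count ratios to Nr1d2 and to Rora. This is the smallest that 36 splits can give.

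Rora, the activator of the 3, showed no day-night change that passed the test. It was 1.66 and 2.21 FPKM in sudachitin ZT18 and 2.13 and 1.66 FPKM in control ZT18 livers. At ZT6 it was 3.48 and 2.54 FPKM under sudachitin and 1.68 and 2.11 FPKM in controls. The sudachitin ZT6 livers were the highest of all and overlapped no other group, and the other 3 groups overlapped, with means of 1.94 ± 0.392 FPKM in sudachitin ZT18, 1.89 ± 0.334 FPKM in control ZT18 and 1.90 ± 0.309 FPKM in control ZT6 (SD, n = 2 each). The log2 change between ZT18 and ZT6 was -0.56 under sudachitin (95% interval -1.18 to 0.07, edgeR adjusted p = 0.45) and 0.03 in controls (95% interval -0.62 to 0.68, edgeR adjusted p = 0.98). Its counts were 37 to 91 per library, and a day-night difference of a size within these intervals was not excluded.

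Sudachitin changed none of the 3 receptors past the threshold at either time. At ZT18, where 0.0138% of tested transcripts passed, Nr1d2 was 1.35-fold the control level (log2 change 0.44, SE 0.129, 95% interval 0.14 to 0.73, unadjusted p = 0.00855, edgeR adjusted p = 0.71). Both sudachitin livers lay above both control livers there, as was so for 15.3% of all tested transcripts. The 6 stellate cell markers, none at 0, summed to 206 to 255 CPM in the sudachitin ZT18 livers and 262 to 289 CPM in the control ZT18 livers. Of these 6, 3 were lower without overlap, as were 3 of the 6 endothelial markers. The endothelial sums overlapped, at 89.2 to 113 CPM in sudachitin and 98.4 to 115 CPM in control livers. The 15.3% above counts transcripts that were higher, and the share lower is not reported here. The part of these cell types in the Nr1d2 values was not tested. The 2 control ZT18 livers differed more from each other than the mice of any other group (chi-square per degree of freedom 53.1, against 15.8 to 24.3), and without 1 library the transcripts passing at ZT18 numbered 0 to 90 higher and 0 to 104 lower, against 2 and 0 with all. Nr1d1 had a log2 change of 0.30 at ZT18 (95% interval -0.22 to 0.82, edgeR adjusted p = 0.86) and Rora one of 0.10 (95% interval -0.54 to 0.74, edgeR adjusted p = 0.97), and for both genes the groups overlapped. The value of Nr1d1 was -0.044 without sudachitin ZT18 replicate 2, and that of Rora -0.13 without the same library and -0.011 without control ZT18 replicate 2. The interval of Nr1d1 includes a rise of the size seen for Nr1d2, so that the 2 receptors are not shown to differ.

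At ZT6, where 0% of tested transcripts passed, Rora was 1.60-fold the control level under sudachitin (log2 change 0.68, SE 0.278, 95% interval 0.05 to 1.31, unadjusted p = 0.0381, edgeR adjusted p = 1). The counts behind this were 91 and 58.5 in sudachitin livers, with exact Poisson 95% intervals of 73.3 to 112 and 44.5 to 75.5, against 37 and 51 in control livers, with intervals of 26.1 to 51 and 38 to 67.1. The groups did not overlap, as was so in the same direction for 15.4% of tested transcripts, but the intervals of sudachitin replicate 2 and both control livers did; these intervals cover counting error only. The 7 macrophage markers summed to 131 to 206 CPM in the sudachitin ZT6 livers and 93.0 to 113 CPM in the control ZT6 livers. None of them was at 0, and 6 of the 7 were higher without overlap. Of the 6 endothelial markers, 3 were lower without overlap, with sums of 98.1 to 98.2 CPM in sudachitin and 106 to 107 CPM in control livers. The 15.4% above is the share that was higher, and the share of tested transcripts lower at ZT6 is not reported here. The part of these cell types in the Rora values was not tested. The overlapping antisense gene Gm15511 had 13 and 6.5 counts in the same sudachitin livers and 7 and 6.5 counts in controls. Nr1d1 (log2 change -0.12, 95% interval -0.55 to 0.31) and Nr1d2 (-0.03, 95% interval -0.31 to 0.26) both had an edgeR adjusted p of 1 at ZT6. Over all transcripts, edgeR passed 0 at ZT6 with 308 at an unadjusted p under 0.05, and DESeq2 passed 7; DESeq2 passed none of the 3 receptors at either time.

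Whether sudachitin altered the day-night difference was tested by the interaction, in which 0% of transcripts passed. The sudachitin change minus the control change was 0.46 for Nr1d2 on the log2 scale (95% interval 0.05 to 0.87, unadjusted p = 0.0313, edgeR adjusted p = 1), 0.42 for Nr1d1 (95% interval -0.25 to 1.10, edgeR adjusted p = 1) and -0.58 for Rora (95% interval -1.48 to 0.32, edgeR adjusted p = 1). The ZT18 level relative to ZT6 was thus higher under sudachitin for both REV-ERB genes and lower for Rora, and none of these values passed after adjustment. Over both times the log2 change under sudachitin was 0.05 for Nr1d1 (95% interval -0.29 to 0.40), 0.20 for Nr1d2 (95% interval -0.05 to 0.45) and 0.39 for Rora (95% interval -0.08 to 0.86), each with an edgeR adjusted p of 1.

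**Figure D3:**
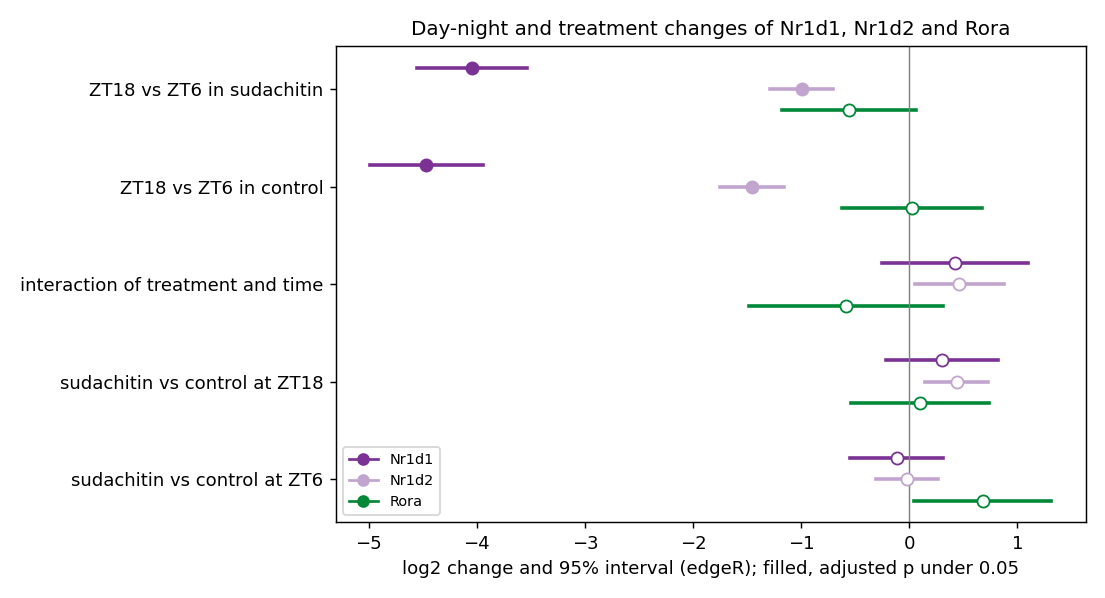
Log2 changes of Nr1d1, Nr1d2 and Rora with 95% intervals from edgeR in 5 comparisons; filled points passed an adjusted p of 0.05. Nr1d1 and Nr1d2 fell at ZT18 in both treatments (log2 changes -4.04 and -0.995 under sudachitin, -4.47 and -1.46 in controls), and no treatment or interaction value was filled.

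Rorb, another gene of the ROR family, had 0 counts in all 8 libraries, which allows up to 3.69 counts per library (exact Poisson, 95%).

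Thra, the thyroid hormone receptor gene that lies tail to tail with Nr1d1, also fell at ZT18 over both treatments (log2 change -0.67, SE 0.121, edgeR adjusted p = 0.021). It had 1.34 and 1.19 FPKM in sudachitin ZT18 and 1.67 and 1.20 FPKM in control ZT18 livers, against 2.24 and 2.27 FPKM in sudachitin ZT6 and 2.30 and 2.08 FPKM in control ZT6 livers. The call was lost without 5 of the 8 libraries (all but sudachitin ZT18 replicate 2, control ZT18 replicate 1 and control ZT6 replicate 2; edgeR adjusted p up to 0.077). The counted Thra row (chr11:98741873-98765111, plus strand) ends before the Nr1d1 row begins; reads of longer Thra isoforms in the Nr1d1 counts were not tested. Med24, on the other side of Thra, had a log2 change of 0.07 (edgeR adjusted p = 0.79), and Thrb, a thyroid hormone receptor gene on the chromosome of Nr1d2, one of -0.14 (edgeR adjusted p = 0.52).

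Clock genes with ROR response elements were mostly higher when the REV-ERB transcripts were low. Of 6 such genes, 4 rose at ZT18 over both treatments, 0 fell and 2 did not pass, where 1.86% of tested transcripts rose; the median log2 change was 0.64, against 0.02 over all tested transcripts. Of those that rose, Cry1, a repressor of CLOCK and BMAL1, rose by a log2 change of 1.81 (SE 0.134, edgeR adjusted p = 0.00066). Nfil3, a repressor that competes at D-boxes, rose by 0.74 (SE 0.147, edgeR adjusted p = 0.03), and Arntl, which encodes BMAL1, by 0.54 (SE 0.122, edgeR adjusted p = 0.045). Cry1 kept its call without any 1 library; Nfil3 lost it without 6 of the 8 (all but control ZT18 replicate 1 and control ZT6 replicate 2) and Arntl without 7 (all but sudachitin ZT18 replicate 1), with edgeR adjusted p values up to 0.1 and 0.13 in that order, so that 2 to 3 of the 6 passed with a library left out. Clock had a log2 change of 0.02 (edgeR adjusted p = 0.92) and Npas2, its paralogue, one of -0.55 (edgeR adjusted p = 0.63). The value of Npas2 combines -2.04 under sudachitin (edgeR adjusted p = 0.18) with 0.66 in controls (edgeR adjusted p = 0.62). Within each treatment alone 2 of the 6 rose, Cry1 among them, where 0.11% of tested transcripts rose under sudachitin and 0.214% in controls. Sudachitin changed none of the 6 past the threshold over both times, by edgeR or DESeq2. Of the 6, 0 were at an unadjusted edgeR p under 0.05, against 640 of the 14506 tested transcripts.

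Of 10 clock genes driven through E-boxes like the REV-ERB genes, 2 fell, 2 rose and 6 did not pass at ZT18 over both treatments, where 1.82% of tested transcripts fell and 1.86% rose. With a library left out, 1 to 2 fell and 0 to 4 rose. Their median log2 change was 0.42, and DESeq2 called 4 higher and 2 lower. Of the 10, 7 had an unadjusted edgeR p under 0.05, against 2957 of the 14506 tested transcripts. DESeq2 counts over all transcripts are given at the end of the text. Those that fell with Nr1d1 and Nr1d2 were Dbp (log2 change -2.14, SE 0.203, edgeR adjusted p = 0.0017), an activator at D-boxes, and Bhlhe41 (-2.06, SE 0.455, edgeR adjusted p = 0.043), a repressor at E-boxes. Bhlhe41 had few reads, with 8 to 21 counts in sudachitin and 5.5 to 7 counts in control livers at ZT18. At ZT6 it had 22 to 52 counts in sudachitin and 29.5 to 53.5 counts in control livers. Per2 (1.65, SE 0.275, edgeR adjusted p = 0.016) and Bhlhe40 (0.87, SE 0.192, edgeR adjusted p = 0.043) rose. Dbp had 12.9 and 12.4 CPM in sudachitin ZT18 and 8.15 and 11.9 CPM in control ZT18 livers, against 52.8 and 40.3 CPM in sudachitin ZT6 and 66.1 and 40.0 CPM in control ZT6 livers, and kept its call without any 1 library. Bhlhe41 lost its call without 5 of the 8 libraries (all but sudachitin ZT18 replicate 2, control ZT18 replicate 1 and sudachitin ZT6 replicate 2), Bhlhe40 without 7 (all but control ZT18 replicate 1) and Per2 without control ZT6 replicate 1, with edgeR adjusted p values up to 0.14, 0.12 and 0.063 in that order.

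Among 20 liver metabolic genes known as targets of REV-ERB or ROR, 2 rose at ZT18 over both treatments, 0 fell and 18 did not pass, where 1.86% of tested transcripts rose. Their median log2 change was 0.54, and DESeq2 called 6, all higher. Of the 20, 10 had an unadjusted edgeR p under 0.05, against 2957 of the 14506 tested transcripts. With a library left out, 0 to 4 rose and 0 to 1 fell. Cyp7a1, the rate-limiting enzyme of bile acid synthesis, rose by a log2 change of 2.0 (SE 0.316, edgeR adjusted p = 0.012), and G6pc, the glucose-6-phosphatase that releases glucose from the liver, by 1.11 (SE 0.236, edgeR adjusted p = 0.037). The call of Cyp7a1 was lost without sudachitin ZT6 replicate 1 (edgeR adjusted p = 0.052), and that of G6pc without 6 of the 8 libraries (all but sudachitin ZT18 replicate 2 and control ZT18 replicate 1; edgeR adjusted p up to 0.12). Cyp7a1 stood at 142 and 120 CPM in sudachitin ZT18 and 49.6 and 106 CPM in control ZT18 livers, against 32.8 and 21.7 CPM in sudachitin ZT6 and 33.2 and 14.0 CPM in control ZT6 livers. Cidec, a lipid droplet protein, had 21.1 and 4.23 CPM in sudachitin ZT18 and 88.7 and 9.20 CPM in control ZT18 livers, against 1.35 and 1.84 CPM in sudachitin ZT6 and 8.06 and 2.68 CPM in control ZT6 livers. The mice of each ZT18 group differed widely and the times overlapped, with a log2 change of 3.12 (edgeR adjusted p = 0.061, but 0.046 without sudachitin ZT18 replicate 2 and 0.022 without control ZT18 replicate 2). Cyp8b1, a sterol hydroxylase, had a log2 change of 0.60 (edgeR adjusted p = 0.08). Sudachitin changed none of the 20 past the threshold over both times by edgeR or DESeq2, where edgeR passed 0.0207% of transcripts. Of the 20, 1 was at an unadjusted edgeR p under 0.05, against 640 of the 14506 tested transcripts. The smallest p was that of Cidec (log2 change -1.89, edgeR adjusted p = 1).

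Genes of the machinery through which the receptors act did not pass the test. None of 11 corepressor and coactivator genes passed between ZT18 and ZT6 over both treatments, and their median log2 change was 0.10. Of the 11, 3 had an unadjusted edgeR p under 0.05, against 2957 of the 14506 tested transcripts, and DESeq2 called 0. The smallest p values belonged to Tbl1x, a corepressor subunit, at -0.25 (edgeR adjusted p = 0.13), and to the acetyltransferase coactivators Ep300 at 0.30 (edgeR adjusted p = 0.2) and Crebbp at 0.29 (edgeR adjusted p = 0.23), while Ncoa2 stood at -0.34 (edgeR adjusted p = 0.26). None of 7 genes for the stability of REV-ERB protein passed, among them the ubiquitin ligases Siah2 (0.32, edgeR adjusted p = 0.13) and Mycbp2 (0.30, edgeR adjusted p = 0.22), and the kinases Gsk3b (0.13, edgeR adjusted p = 0.5) and Cdk1 (0.28, edgeR adjusted p = 0.84). Of these 7, 2 had an unadjusted edgeR p under 0.05, against 2957 of the 14506 tested transcripts, and DESeq2 called 0.

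None of 12 genes that make or break down heme, the REV-ERB ligand, passed between ZT18 and ZT6 over both treatments. Of the 12, 3 had an unadjusted edgeR p under 0.05, against 2957 of the 14506 tested transcripts. DESeq2 called 1 of them, as lower. Alas1, the rate-limiting enzyme of heme synthesis, had a log2 change of 1.45 (95% interval 0.34 to 2.56, edgeR adjusted p = 0.14). Cpox, a later enzyme of that pathway, stood at 0.23 (edgeR adjusted p = 0.19) and Blvrb, a biliverdin reductase, at 0.29 (edgeR adjusted p = 0.31). Under sudachitin the smallest p values in these 3 groups of genes were those of Hdac3, Onecut1, Siah2, Gsk3b, Blvra and Cpox, with log2 changes between -0.20 and 0.97 over both times and an edgeR adjusted p of 1 for each.

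**Figure D4:**
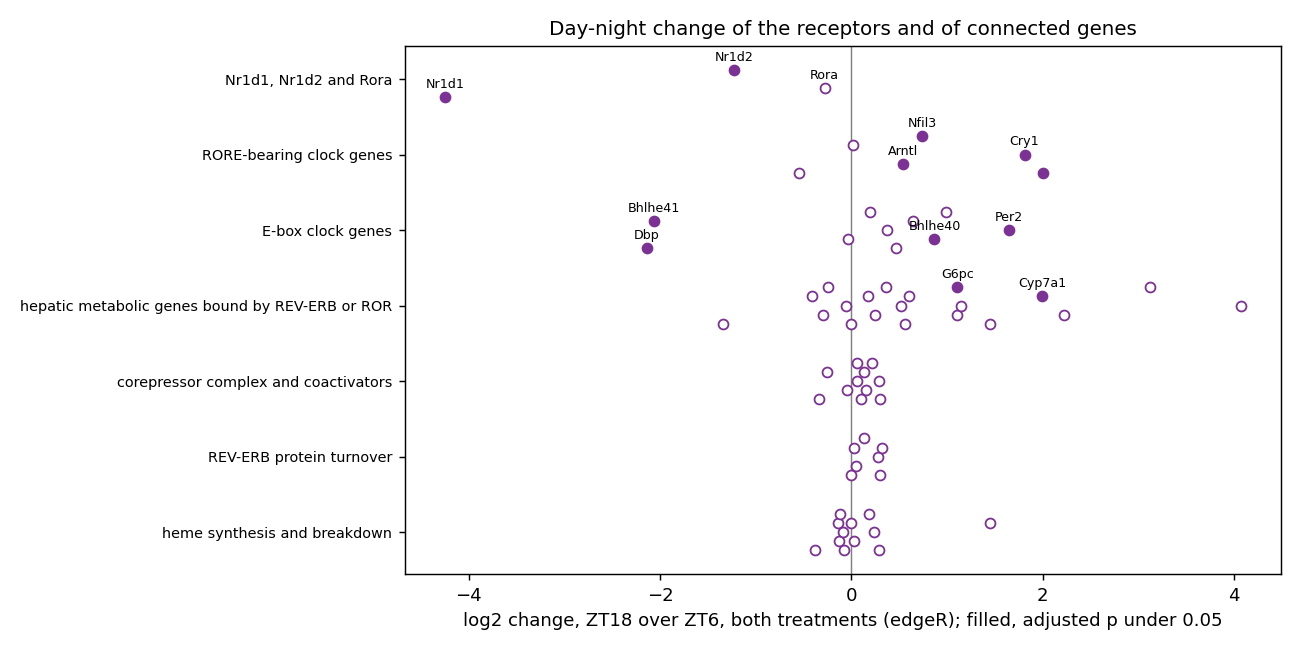
Log2 change between ZT18 and ZT6 over both treatments (edgeR) of the 3 receptors and of 6 lists of connected genes, 1 point per gene, filled where the adjusted p was under 0.05. Nr1d1 lies at -4.25, while 4 of 6 genes with ROR response elements rose, and no gene of the 3 lowest lists passed.

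Across the 8 libraries the log2 CPM of Nr1d1 and Nr1d2 had a Pearson r of 0.967 and that of Nr1d1 and Rora one of 0.411; as 4 libraries come from each time, these values mainly describe the day-night split and carry no test. Of 11426 transcripts compared, those most like Nr1d1 were Abcb11, the bile salt export pump, with r = 0.986, then Slc25a48, Sort1, Slc38a7 and Ncald (0.985 to 0.978). Those most opposed to it were Wee1, a kinase that holds back mitosis, at -0.997, Cry1 at -0.988 and Pnrc1 at -0.984.

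For Nr1d2 the closest patterns were those of Sec63 at r = 0.994, Ocln, a tight junction protein, at 0.988, Dlg1, Spcs3 and Pdcd4 (0.984 to 0.977), and the most opposed were Lrrc28 at -0.988, Ttc17 at -0.987 and Desi2 at -0.981. None of these transcripts was also among those named for Nr1d1. For Rora the closest were Mvb12b at 0.942, Bcl2l2 at 0.934, Card14 at 0.93, Erc2 at 0.924 and Tmem205 at 0.906, and the most opposed B3gat2 at -0.955, Tspan3 at -0.951 and Pde3a at -0.941. None of those named for Rora passed between ZT18 and ZT6 over both treatments (edgeR adjusted p 0.44 to 0.84). Rora had 37 to 91 counts per library. These r values are extremes of 11426 and carry no test.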

How the data were processed

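The deposited tables hold estimated counts in exons, in steps of 0.5 and not normalized, and FPKM, per the file headers and the values. The submitters' processing notes name Trimmomatic 0.39, STAR 2.7.2a, HOMER (version not given) and GRCm38. The FPKM values deposited by the authors were used for levels. Counts, with 0.5 rounded up, were tested with edgeR 4.0.16 in R 4.3.3 (TMM factors, default filter by group, quasi-likelihood F test, Benjamini-Hochberg over 14506 transcripts, threshold 0.05). All 8 libraries entered each fit, with 4 group means, or with treatment plus time where both treatments or both times were combined. The SE is the log2 change divided by the square root of F. The rule for named genes takes the 3 receptors, whole lists for genes with ROR response elements, family and neighbours, up to 4 (time) and 2 (treatment) genes of other lists by p, and the 5 highest and 3 lowest Pearson r with each receptor among transcripts of at least 1 CPM; Gm15511 was added after its values were seen. Some genes so named are not reported here. Members and lists were chosen with earlier results of these data known. Titles name a mouse per library; if 2 libraries were not separate animals, p-values cover technical spread only. Exons came from GENCODE mouse release 21. Alternatives were DESeq2 1.42.0, limma 3.58.1 on log2(FPKM + 0.1) or log2(FPKM + 1), other scaling and filters, a replicate block, and each library left out. The test steps were tested on simulated data.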

Additional observations from a re-analysis of the deposited data

Results flagged for a closer look

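Cry1, a target of the receptors with ROR response elements, and Cdk1, a kinase listed for REV-ERB turnover, moved in opposite directions under sudachitin at the 2 times, with no overlap between the mice of the 2 treatments at either time. Cry1 had 40.9 and 39.0 CPM in sudachitin and 45.1 and 46.3 CPM in control livers at ZT18, and 12.5 and 15.2 CPM in sudachitin and 9.64 and 11.6 CPM in control livers at ZT6. Its interaction was -0.578 on the log2 scale (SE 0.197, unadjusted p = 0.0176, edgeR adjusted p = 1). Cdk1 had 8.5 and 12.5 counts in sudachitin and 52 and 15.5 counts in control livers at ZT18, and 22 and 24.5 counts in sudachitin and 6 and 11 counts in control livers at ZT6. Its interaction was -3.027 (SE 0.756, unadjusted p = 0.00337, edgeR adjusted p = 1), so neither difference passed the test. Per1 and Hlf, from the list of E-box clock genes, also reversed without overlap. Their log2 changes under sudachitin were 0.63 and -0.18 at ZT18, and -0.43 and 0.27 at ZT6. At a single time, sudachitin was higher without overlap for 15.3% (ZT18) and 15.4% (ZT6) of tested transcripts. The share of all transcripts that reversed in this way was not determined.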

How the results depend on the processing

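Of 390 alternative values for the 3 receptors, 364 kept their direction and their side of the threshold, 11 lost the call and 15 changed sign. For Nr1d2 under sudachitin, the replicate block gave -0.99 (adjusted p = 0.055), limma on log2(FPKM + 0.1) -1.05 (0.061) and on log2(FPKM + 1) -0.88 (0.06), and libraries left out -1.10 to -0.91. For Nr1d2 in controls, only the groups compared gave -1.46 (0.11), and libraries left out -1.55 to -1.37. Sign changes concerned values that passed no test: with libraries left out, Nr1d1 ran from -0.27 to 0.033 for sudachitin at ZT6, from -0.044 to 0.58 at ZT18 and from -0.10 to 0.17 over both times (limma on log2(FPKM + 1), -0.0079), Nr1d2 from -0.11 to 0.070 at ZT6, Rora from -0.13 to 0.29 at ZT18 and from -0.13 to 0.19 between times in controls (limma, -0.0026 with or without a filter and -0.0015 at the larger pseudocount). For the ratios of Nr1d1 to Nr1d2 and to Rora, exchanging labels within a replicate number (replicate block) or a treatment leaves the differences of -3.04 and -4.00 as they are by construction, and the smallest p possible there is 0.0556; they ranged from -3.14 to -2.90 and from -4.16 to -3.78 without a library. Correlations of deviations by replicate number were -0.204 to 0.281 between groups. With 2 mice a group these cannot settle whether replicate numbers pair the mice, and the main tests used no pairing. Of 702 values for the other named genes, 620 kept their call, 59 lost one, 14 gained one and 9 changed sign, and 113 of 1560 list counts moved by over 1.5 times. Clock between times gave -0.032 with limma with or without a filter, -0.023 at the larger pseudocount and -0.063 to 0.067 with libraries left out, Cdk1 -0.44 to 0.70 and Med24 -0.028 to 0.16. The cause of these changes was not tested. Counts over all transcripts moved more: over both treatments 270 rose and 264 fell between times, against 442 and 497 with DESeq2, 993 and 636 with no filter and 85 to 582 and 79 to 466 without a library.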
